A study of Mus musculus with 3 samples.

Results

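Neurexins, neuroligins and leucine-rich repeat transmembrane neuronal proteins (LRRTMs) are cell adhesion proteins that hold the 2 sides of a synapse together. Their transcripts were measured in the neocortex of 13-day-old wild-type mice of the outbred CD1 stock. The genes were chosen by name: a probe set belonged to the family if the platform annotation gave it exactly 1 gene symbol and that symbol was Nrxn2, Nrxn3, Nlgn1, Nlgn2, Nlgn3, Lrrtm1, Lrrtm2, Lrrtm3 or Lrrtm4. Of these 9 genes, 8 had such a probe set, 1 each, out of 14938 single-gene probe sets and 23172 probe sets in all. Nrxn2 had none and is not analysed here. Total RNA came from 3 animals, with 1 array per animal and no second group, so the data give the level of each gene and its spread over animals, without any contrast of conditions. The labels state no sex and no genotype other than wild type. All levels are log2 of the deposited intensity.

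Neurexins sit on the presynaptic side and carry many alternatively spliced extracellular forms, with long alpha and short beta proteins made from separate promoters of 1 gene. Neuroligins and LRRTMs sit on the postsynaptic side and both bind neurexins across the cleft. Neuroligins have an extracellular domain related to cholinesterases and an intracellular tail that binds scaffold proteins, whereas LRRTMs bind with a stack of leucine-rich repeats. In rodent forebrain these proteins shape the number and the strength of excitatory and inhibitory synapses, many of which form in the cortex in the weeks after birth. Each gene here has a single value per array, so splice forms, and the alpha and beta forms of Nrxn3, are not separated. Bulk RNA was used, so fewer cells of a type and less RNA per cell cannot be told apart.

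The arrays had median intensities between 230.6 and 256.6. With no control tissue, a background limit was set on each array as the 95th percentile of 809 probe sets of chemosensory receptors (olfactory, vomeronasal and trace amine), and it lay between 6.77 and 6.93. Of markers of cortical and neighbouring cells, 48 were measured and all 48 were above the limit on every array, as were 73.9% of all single-gene probe sets. They included 6 of 6 general neuronal, 5 of 5 excitatory neuron and 6 of 6 interneuron markers. Markers of astrocytes (5 of 5), oligodendrocytes (5 of 5), microglia (6 of 6), endothelium (5 of 5), meninges (6 of 6) and striatum (4 of 4) were above it too. Since every list passed, striatum included, this comparison did not set the labelled tissue apart from its neighbours. The arrays differed, and not by a common shift alone. Mouse 1 had a higher median intensity than mouse 3 (248.1 against 230.6) but a lower upper quartile (952.5 against 998.7). Deviations from a probe set's own mean were taken over the 11037 single-gene probe sets above the limit. Their median was -0.07 in mouse 1, 0.10 in mouse 2 and -0.02 in mouse 3. Intensity also reflects how well each gene's probes bind, so no gene's level is set against another's.

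All 8 measured genes exceeded the background limit on each of the 3 arrays, as did 73.9% of all single-gene probe sets. The smallest margin over an array's limit was 3.22, for Nlgn1 in mouse 1, and the largest was 5.19, for Nlgn3 in mouse 2, both on the log2 scale.

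**Figure D1:**
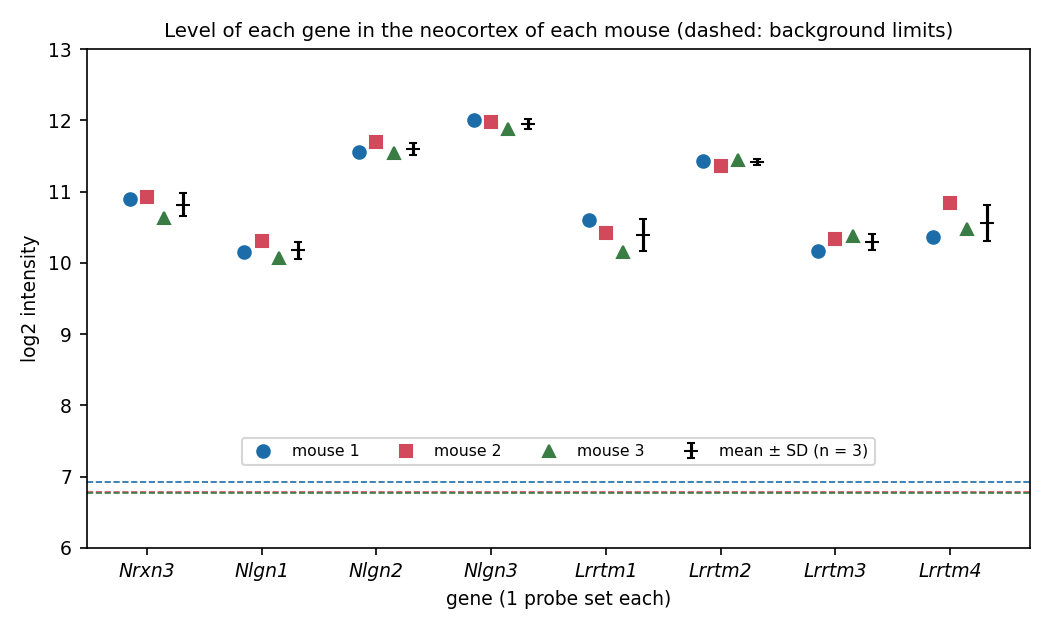
Log2 intensity (y axis) of the 8 measured genes (x axis) in each mouse, with the mean ± SD over 3 mice in black and the background limit of each array as a dashed line in that mouse's colour. All points lie above the limits, which are between 6.77 and 6.93; heights are not comparable between genes, because each gene has its own probes.

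Nrxn3, the presynaptic member, encodes a neurexin receptor for both postsynaptic families. It was at 10.90 in mouse 1, 10.92 in mouse 2 and 10.64 in mouse 3 (10.82 ± 0.16, SD, n = 3; probe set 6796813). As deposited, mice 1 and 2 were nearly level and mouse 3 was low, with a 1.22-fold difference between the highest and the lowest animal. After quantile normalization its deviations from its own mean were 0.19, -0.01 and -0.17 in mice 1 to 3. The near-level values of mice 1 and 2 thus depended on scaling. RefSeq's table of transcription starts (build GRCm38.p6) lists 3 promoter windows for this gene. Which of their transcripts the probe set detects was not tested.

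Among the neuroligins, Nlgn1, which in rodents is found mainly at excitatory synapses, was at 10.15, 10.31 and 10.08 in mice 1 to 3 (10.18 ± 0.12, SD, n = 3; probe set 6903711). Nlgn2, found mainly at inhibitory synapses, was at 11.56, 11.70 and 11.55 (11.60 ± 0.08, SD, n = 3; probe set 6789351). Nlgn3, an X-linked gene whose protein occurs at both kinds of synapse, was at 12.01, 11.97 and 11.88 (11.95 ± 0.07, SD, n = 3; probe set 7012862). As deposited, each of the 3 neuroligins had its minimum in mouse 3. Nlgn1 and Nlgn2 peaked in mouse 2, and Nlgn3 peaked in mouse 1. The differences between the highest and the lowest animal were 1.18-fold for Nlgn1, 1.11-fold for Nlgn2 and 1.10-fold for Nlgn3. The order of the mice depended on scaling. With each array centred on its median, the minimum of Nlgn1 (-0.05) and Nlgn2 (-0.06) fell in mouse 1. That of Nlgn3 (-0.05) then fell in mouse 2. After quantile normalization all 3 minima stayed in mouse 3, but Nlgn1 (0.06) and Nlgn2 (0.09) peaked in mouse 1.

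Of the LRRTMs, Lrrtm1, which encodes a postsynaptic inducer of excitatory presynaptic contacts, was at 10.60, 10.42 and 10.16 (10.39 ± 0.22, SD, n = 3; probe set 6947131), highest in mouse 1 and lowest in mouse 3. Lrrtm2, a neurexin ligand at excitatory synapses, was at 11.43, 11.36 and 11.44 (11.41 ± 0.04, SD, n = 3; probe set 6864583). Its 3 values were the closest of any gene of the family, within 1.05-fold. Lrrtm3, a further member of the same family, was at 10.17, 10.34 and 10.38 (10.30 ± 0.11, SD, n = 3; probe set 6774495) and lowest in mouse 1. Lrrtm4, whose protein in rodents also binds heparan sulfate proteoglycans such as glypicans, was at 10.37, 10.85 and 10.47 (10.56 ± 0.25, SD, n = 3; probe set 6947211). Its value in mouse 2 stood above those of mice 1 and 3, which were close to each other, and its 1.39-fold difference between animals was the widest of the 8 genes, followed by 1.36-fold for Lrrtm1. The LRRTMs thus held both the narrowest and the widest spread of the family.

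Apart from Lrrtm4, the LRRTM genes lie inside a gene of the alpha-catenin family, whose proteins link cadherins to actin. In the RefSeq annotation of GRCm38, Lrrtm1 lies within Ctnna2, Lrrtm2 within Ctnna1 and Lrrtm3 within Ctnna3, whereas Lrrtm4, Nrxn3 and the neuroligins lie within no other protein-coding gene. By the strands of their promoter windows, Lrrtm1 and Ctnna2, and likewise Lrrtm3 and Ctnna3, are transcribed in opposite directions. Ctnna3 was below the limit on all arrays, at 6.44, 6.40 and 6.12, while Lrrtm3 inside it was above the limit by 3.24 in mouse 1, 3.55 in mouse 2 and 3.61 in mouse 3. Ctnna2 was at 12.10, 12.22 and 12.11 and did not share the order of Lrrtm1, so that Lrrtm1 minus Ctnna2 was -1.50 in mouse 1, -1.80 in mouse 2 and -1.96 in mouse 3. Ctnna1 was at 9.87, 9.70 and 9.83 and, like Lrrtm2, lowest in mouse 2. The full order was not shared, since Ctnna1 was highest in mouse 1 and Lrrtm2 in mouse 3. The difference of Lrrtm2 from Ctnna1 had an SD of 0.05 over mice, and both genes varied little themselves, with SDs of 0.04 for Lrrtm2 and 0.09 for Ctnna1. Whether a probe set of one gene reads RNA of the other strand was not tested.

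No gene of the family passed a test for varying over the animals beyond what is usual at its level. Limma's robust variance prior was fitted to 13649 probe sets above the limit. In this test 0 of the 8 had an adjusted p (Benjamini-Hochberg) under 0.05, where 0.0659% of the 13649 probe sets did. An unadjusted p under 0.05 in it was found for 0 of the 8, where 5.27% of the 13649 had one. The lowest adjusted p-values in limma's model were 0.977 for Lrrtm4 and 0.978 for Lrrtm1. The SDs of the 8 genes ran from 0.04 to 0.25 with a median of 0.12, beside a median of 0.16 over all single-gene probe sets above the limit. Of the 500 probe sets nearest in level to each gene, 6% had a smaller SD than Lrrtm2, 13.4% a smaller one than Nlgn3 and 20.0% a smaller one than Nlgn2, against 77.6% for Lrrtm1 and 85.6% for Lrrtm4. With 3 animals the test has limited reach: on simulated data for these 13649 probe sets it recovered 50% of those with a 4 times larger SD and 78% of those with an 8 times larger SD, with 9 false calls.

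The most common lowest animal over these arrays was mouse 1 and the most common highest was mouse 2, and of the family Lrrtm4 alone had both. Mouse 1 was the lowest animal for Lrrtm3 and Lrrtm4, 2 of 8 genes, against 53.8% of all single-gene probe sets above the limit. Mouse 3 was the lowest for Nrxn3, Lrrtm1 and all 3 neuroligins, 5 of 8, against 34.7%, and mouse 2 for Lrrtm2 alone, against 11.5%. Mouse 2 was the highest for Nrxn3, Nlgn1, Nlgn2 and Lrrtm4, 4 of 8, against 59.8%, mouse 1 for Nlgn3 and Lrrtm1, 2 of 8, against 25.1%, and mouse 3 for Lrrtm2 and Lrrtm3, 2 of 8, against 15%. These counts depend on how the arrays are scaled: with each array centred on its median, mouse 1 was lowest for 4 genes and mouse 3 for 2, and after quantile normalization the counts were 1 and 5. The count for mouse 3 was chosen after its value was seen, and no test of these counts was made.

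Against the median of probe sets of like level, 6 of the 8 genes lay high in mouse 1. The median deviation of the 8 genes from their own means was -0.01 in mouse 1, 0.07 in mouse 2 and -0.08 in mouse 3, where the 500 probe sets nearest in level had medians of about -0.10, 0.11 and -0.01. Relative to those probe sets, 6 of 8 genes were high in mouse 1, by up to 0.30 for Lrrtm1 and 0.22 for Nlgn3, and the exceptions were Lrrtm3 (-0.03) and Lrrtm4 (-0.12). In mouse 3, 6 of 8 were low, down to -0.23 for Lrrtm1 and -0.18 for Nrxn3, and Lrrtm2 (0.02) and Lrrtm3 (0.09) were not. In mouse 2, 6 of 8 were low, and Lrrtm4 (0.19) and Nlgn1 (0.03) were high. By definition, as many probe sets of like level lie above their median as below it. The deviations are taken from a gene's own mean, so a high value in mouse 1 goes with lower ones elsewhere. The counts for the 3 mice are therefore not independent, and they were not tested. None of the 8 genes passed the variance test above.

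Markers of cell types also took different values in the 3 animals. In limma's variance test 0 of the 48 markers passed after adjustment (lowest adjusted p = 0.351). An unadjusted p under 0.05 in that test was found for 9 of the 48, where 5.27% of all probe sets above the limit had one. Endothelial, oligodendrocyte, astrocyte, microglial and general neuronal markers were not among these 9. Of the endothelial markers 4 of 5 were highest in mouse 1, against 25.1% of all single-gene probe sets above the limit, with median deviations of 0.24, -0.04 and -0.20 and summed intensities of 3651, 3065 and 2818 in mice 1 to 3. The meningeal markers were highest in mouse 2, 6 of 6, with median deviations of -0.33, 0.41 and -0.22 and summed intensities of 9547, 14762 and 10810. The striatal markers were also highest in mouse 2, 4 of 4, with median deviations of -0.34, 0.22 and 0.05 and summed intensities of 9895, 14685 and 13694. Being highest in mouse 2 was the usual case, at 59.8% of all single-gene probe sets above the limit, and also held for 6 of 6 interneuron, 4 of 5 excitatory neuron and 4 of 6 microglial markers. Mouse 3 was the highest animal for 5 of 5 oligodendrocyte, 4 of 5 astrocyte and 5 of 6 general neuronal markers, against 15%. That share covers all levels. The median deviations of these lists in mouse 3 were 0.16, 0.09 and 0.09. Probe sets of like level also lay high in mouse 3, at 0.05, 0.04 and 0.06, against -0.02 over all single-gene probe sets above the limit. No marker of these lists was at 0. Their part in the differences between animals was not tested.

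**Figure D2:**
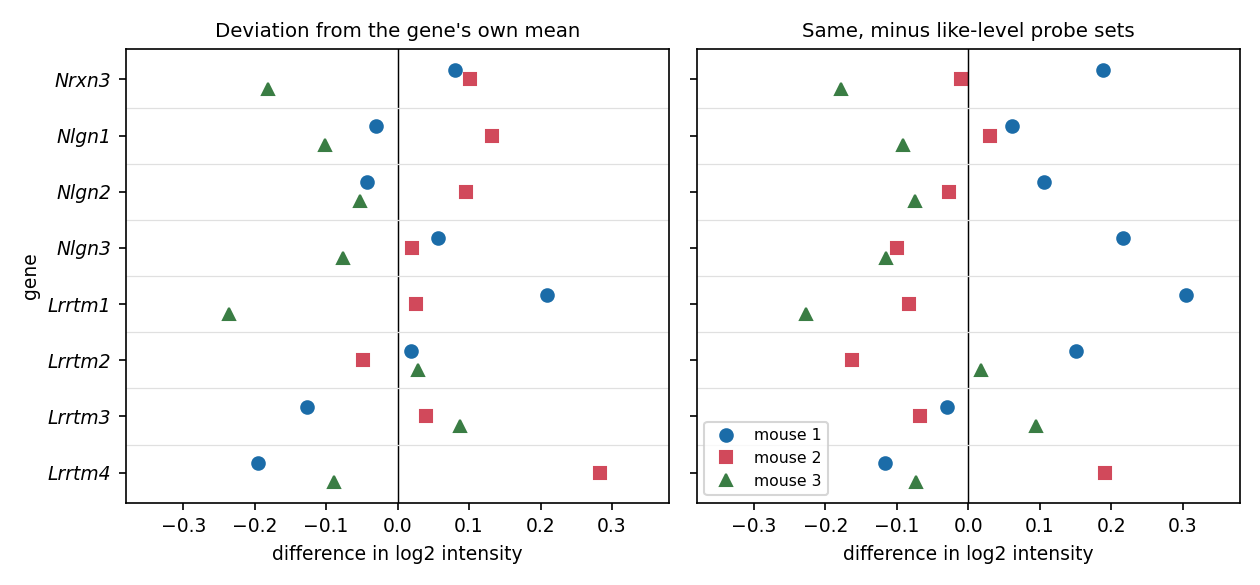
Difference in log2 intensity (x axis) of each gene (y axis) from its own mean over 3 mice (left), and the same after subtracting the median deviation of the 500 probe sets nearest in level (right), with 1 point per mouse. On the right, mouse 1 lies above 0 for 6 of 8 genes and mouse 3 below 0 for 6 of 8.

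Differences between genes of the family within an array are free of any shift common to all probe sets of that array. They are not free of array differences that vary with level. They were compared between the mice for each of the 28 pairs. Only the change of a pair's difference from mouse to mouse is read, not its sign. The smallest SD of the 28 pairs was that of Nlgn1 and Nlgn2, whose difference was -1.41 in mouse 1, -1.39 in mouse 2 and -1.47 in mouse 3 (SD 0.04). The other neuroligin pairs had SDs of 0.09 and 0.10. The LRRTM pairs ranged from 0.13 for Lrrtm2 with Lrrtm3 to 0.35 for Lrrtm1 with Lrrtm4. Lrrtm1 minus Lrrtm4 was 0.23 in mouse 1, -0.43 in mouse 2 and -0.32 in mouse 3, a 1.58-fold change of the ratio between mice 1 and 2. That change rested on mouse 1, without which the ratio moved 1.08-fold. Pairs of a neuroligin with an LRRTM had a median SD of 0.16, and pairs of Nrxn3 with another gene had 0.13. Over all 28 pairs the median SD was 0.16, also with the level-dependent difference of the arrays removed. Over the 1830 pairs of 61 partner genes described below it was 0.15 with quartiles of 0.10 and 0.23. Of those partner pairs, 6.12% had a smaller SD than Nlgn1 with Nlgn2 and 7.43% a larger one than Lrrtm1 with Lrrtm4. Both lie within the range that partner genes show. The partner pairs were not matched to the family for level. Some of their genes lie nearer the limit, such as Mmp9 at 0.15 above it in mouse 1.

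**Figure D3:**
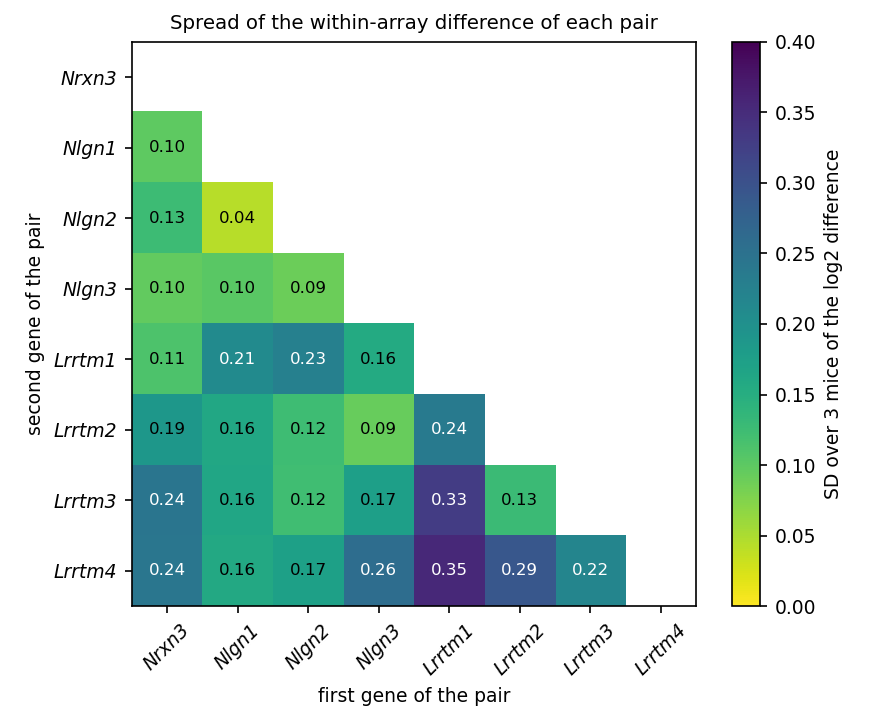
SD over 3 mice of the within-array difference in log2 intensity for each of 28 pairs, with the first gene on the x axis, the second on the y axis and the SD as colour and number. The 3 neuroligin pairs lie between 0.04 and 0.10 and the 6 LRRTM pairs between 0.13 and 0.35.

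The promoters of the pair with the steadiest ratio, Nlgn1 and Nlgn2, and of the pair with the least steady one, Lrrtm1 and Lrrtm4, are shown as RefSeq gives them (build GRCm38.p6, a different build from the one named for the arrays), from 250 bases before to 50 bases after the first listed start and in the direction of transcription. Nlgn1 is at chr3:26331860-26332159 on the minus strand, Nlgn2 at chr11:69837735-69838034 on the minus strand, Lrrtm1 at chr6:77242227-77242526 on the plus strand, within Ctnna2, and Lrrtm4 at chr6:80018627-80018926 on the plus strand. Capitals mark matches, on either strand, to any of 4 short motifs. A GC box was searched for as GGGCGG. The letters of the TATA box were TATAAA. The core of the cyclic AMP response element (CRE) was written as TGACG. For the E-box the search used CAGNTG. No matches to different motifs overlapped in these windows.
Nlgn1: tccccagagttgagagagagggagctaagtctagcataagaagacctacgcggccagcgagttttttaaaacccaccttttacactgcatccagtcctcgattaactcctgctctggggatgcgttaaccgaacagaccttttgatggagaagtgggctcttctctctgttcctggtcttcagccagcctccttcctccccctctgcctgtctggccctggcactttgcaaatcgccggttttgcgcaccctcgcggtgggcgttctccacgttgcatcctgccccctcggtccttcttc
Nlgn2: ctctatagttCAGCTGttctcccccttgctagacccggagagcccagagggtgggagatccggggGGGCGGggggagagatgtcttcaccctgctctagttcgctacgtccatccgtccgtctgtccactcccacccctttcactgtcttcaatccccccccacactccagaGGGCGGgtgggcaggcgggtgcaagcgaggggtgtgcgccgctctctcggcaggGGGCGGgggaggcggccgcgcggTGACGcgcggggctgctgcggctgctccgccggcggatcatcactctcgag
Lrrtm1: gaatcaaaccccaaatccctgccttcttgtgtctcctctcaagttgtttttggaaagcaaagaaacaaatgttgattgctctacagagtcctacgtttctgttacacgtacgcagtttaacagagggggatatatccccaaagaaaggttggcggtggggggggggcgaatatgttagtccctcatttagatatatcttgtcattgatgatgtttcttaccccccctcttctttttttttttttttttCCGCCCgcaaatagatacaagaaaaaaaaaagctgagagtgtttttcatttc
Lrrtm4: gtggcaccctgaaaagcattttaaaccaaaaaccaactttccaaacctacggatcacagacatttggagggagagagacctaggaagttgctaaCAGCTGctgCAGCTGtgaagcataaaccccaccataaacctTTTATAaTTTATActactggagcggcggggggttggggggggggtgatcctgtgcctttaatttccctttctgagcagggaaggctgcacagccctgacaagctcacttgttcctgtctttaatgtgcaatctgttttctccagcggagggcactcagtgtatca
The Nlgn1 and Nlgn2 windows differ in composition. That of Nlgn2 has 68.7% G and C and 26 CpG dinucleotides, with 3 GC boxes, 1 CRE core and 1 E-box, and that of Nlgn1 has 55.7%, 14 CpG dinucleotides and no match to the 4 motifs. The Lrrtm1 window has 40.7% G and C with 1 GC box. That of Lrrtm4 has 48.7% with 2 E-boxes and 2 TATA boxes, both on the opposite strand. Nlgn1 and Lrrtm4 each have a second listed start, whose window is not shown and differs. The second Nlgn1 window has 44.7% G and C, 6 CpG dinucleotides and no match. The second Lrrtm4 window has 53.3%, no TATA box and 1 E-box. Of all 32851 RefSeq promoter windows, 35.7% hold the GC box letters, 13.6% the TATA box, 20.8% the CRE core and 51.4% the E-box, and the median window has 52.7% G and C. These matches describe the letters and are not tested sites. RefSeq windows were matched for 6 of the 8 genes. Nlgn3 and Lrrtm2 are named only.

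The extracellular partners of neurexins other than neuroligins and LRRTMs were measured in the same RNA. Of 14 such ligands listed, 13 were measured, all above the limit, and 0 passed limma's variance test at an adjusted or an unadjusted p under 0.05. Cbln1, a cerebellin that bridges neurexins to delta glutamate receptors, was at 11.60, 11.66 and 11.67 in mice 1 to 3, and Cbln2 was at 10.57, 10.44 and 10.55. C1ql2 and C1ql3, C1q-like proteins that in mouse hippocampus link neurexins to kainate receptors, were at 8.91 ± 0.03 and 9.40 ± 0.22 (SD, n = 3), and C1ql3 stood at 9.65 in mouse 1, 9.27 in mouse 2 and 9.28 in mouse 3. The median deviations of the list were -0.04, 0.03 and 0.01.

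Inside the presynaptic terminal, 8 of 10 listed partners were measured and all were above the limit. Cask, the scaffold kinase that binds the tails of neurexins, was at 11.52, 11.58 and 11.47. As deposited, Cask and Nrxn3 were both highest in mouse 2 and lowest in mouse 3. Over all single-gene probe sets above the limit, 59.8% were highest in mouse 2 and 34.7% lowest in mouse 3. After quantile normalization or median centring, Nrxn3 was highest in mouse 1. Nrxn3 minus Cask changed by 1.16-fold over the animals (SD 0.12). Apba1 and Apba2, adaptor proteins of the Mint family, were at 11.48 ± 0.14 and 11.28 ± 0.11, and Lin7b, a small scaffold in the same complex, at 11.92 ± 0.25. In the same test 0 of 8 passed, also unadjusted.

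Among the scaffolds of the postsynaptic side, 9 of 13 were measured, all above the limit, and 0 passed, adjusted or not. Dlg4, which encodes PSD-95, a scaffold that binds neuroligin tails, was at 12.41, 12.49 and 12.36, and the difference of Nlgn1 from it was -2.27, -2.18 and -2.29 in mice 1 to 3 (SD 0.06). Gphn, which encodes gephyrin, the scaffold of inhibitory synapses, was at 11.03, 11.22 and 11.35. Nlgn2 minus Gphn was 0.53 in mouse 1, 0.48 in mouse 2 and 0.20 in mouse 3, a 1.26-fold change of the ratio (SD 0.18, within the quartiles of all partner pairs), and Dlg4 minus Gphn was 1.38, 1.27 and 1.01. Gphn and these differences were chosen after their values were seen. Dlg1, Dlg2 and Dlg3, relatives of PSD-95, were at 10.91 ± 0.12, 12.28 ± 0.12 and 11.27 ± 0.06 (SD, n = 3).

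Genes whose products act on neurexins or neuroligins were measured as well. Of 6 genes for blocking or cleaving proteins 4 were measured, all above the limit. Mdga2, which binds neuroligins and competes with neurexins, was at 9.95, 10.03 and 9.89, Adam10, a membrane protease, at 11.10, 11.07 and 11.11, and Psen2, a subunit of gamma-secretase, at 9.08 ± 0.02. Mmp9, a matrix protease known to cleave neuroligin-1, was at 7.08, 8.03 and 7.24, a 1.94-fold difference between mice 2 and 1 (SD 0.51). Its value in mouse 1 was 0.15 above that array's limit. In limma's model Mmp9 alone of the 61 partner genes had an unadjusted p under 0.05, where 5.27% of probe sets above the limit did. It did not pass there after adjustment (adjusted p = 0.847). Khdrbs1, Khdrbs2 and Khdrbs3 encode RNA-binding proteins of the STAR family that act on alternative splicing of neurexins. All 3 had their minimum in mouse 1 and their maximum in mouse 2. Each was the usual case on these arrays. Over all single-gene probe sets above the limit, 53.8% had their minimum in mouse 1 and 59.8% their maximum in mouse 2. Khdrbs3, which encodes the neuronal protein SLM2, was at 11.66, 12.20 and 12.09 (adjusted p = 0.977), Khdrbs1 at 10.99, 11.22 and 11.13, and Khdrbs2 at 8.75, 9.12 and 8.96.

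Other families of synaptic organisers, 22 of 27 measured and all above the limit, were most often lowest in mouse 3. This held for 13 of 22, with 7 lowest in mouse 1, beside 34.7% and 53.8% of all single-gene probe sets above the limit. The median deviations were -0.03, 0.11 and -0.08 in mice 1 to 3. These counts are given for the values as deposited only, and such orders depend on scaling. With median centring, the share of all single-gene probe sets lowest in mouse 3 was 16.3%. Slitrk1, a leucine-rich repeat protein that binds presynaptic receptor phosphatases, was at 10.85, 10.79 and 10.58, and its relatives Slitrk3, Slitrk4 and Slitrk5 were at 10.58 ± 0.16, 9.74 ± 0.06 and 10.16 ± 0.16 (SD, n = 3). These 4 were lowest in mouse 3, and Slitrk6, the remaining measured member and chosen after its values were seen, was lowest in mouse 1 at 8.09, 8.63 and 8.29. None of the 22 passed limma's variance test, adjusted or unadjusted. Over the 7 partner lists together, 61 of 62 measured genes, all but Ctnna3, were above the limit, as were 73.9% of all single-gene probe sets. Of the 61, 26 were lowest in mouse 1 and 27 in mouse 3.

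**Figure D4:**
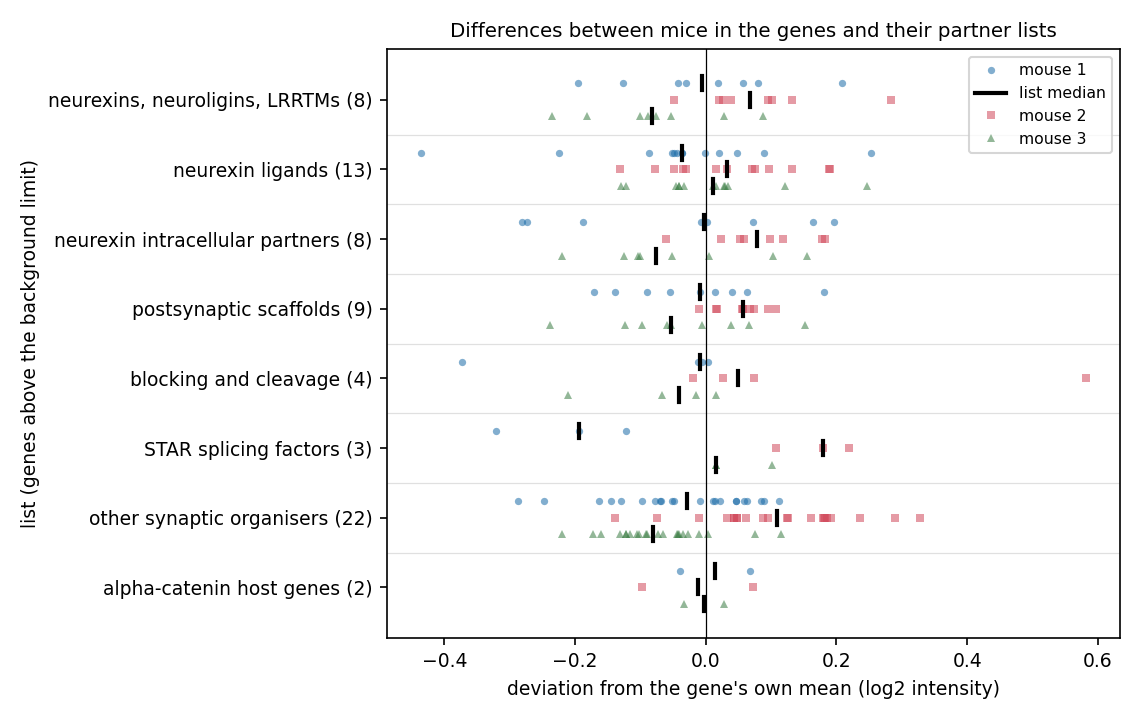
Deviation of each gene from its own mean in log2 intensity (x axis) for the 8 genes and 7 partner lists (y axis, number of genes above the limit in brackets), with 1 point per gene and mouse and the median of a list in a mouse as a black bar. The list of other synaptic organisers has medians of -0.03, 0.11 and -0.08 in mice 1 to 3, beside -0.01, 0.07 and -0.08 for the family.

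By the distance of their 3 deviations from the medians of the family, the nearest named probe sets were those of Slc45a1 (10.12, 10.20 and 10.05), Dhrs13 (9.94, 10.01 and 9.86) and Clock (10.42, 10.49 and 10.34). Within a distance of 0.05 on the log2 scale lay 436 of the 11029 other single-gene probe sets above the limit, or 3.95%.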

How the data were processed

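Values deposited by the authors are linear intensities, 1 per probe set. The submitters' processing notes name Affymetrix Power Tools and the mm8 genome. How background was corrected, arrays normalized and probes summarised is not given in the sources used here. RNA was extracted with Trizol and carries a biotin label, per the labels' protocols. Log2 was taken of each value with no pseudocount. The platform annotation gave 1 symbol to 14938 probe sets and several to 989, and 7245 are unnamed here. Where a gene had several probe sets, that with the highest mean was used. Excess variance was computed in R 4.3.3 with limma 3.58.1 (fitFDistRobustly, trend on level, 22.2 prior degrees of freedom). The p-value came from the F distribution, one-sided, and was adjusted by Benjamini-Hochberg over 13649 probe sets. The code was tested on simulated data. The number of arrays limits the precision.

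All 8 measured genes are named. Of each partner list the first 4 measured genes in written order are named, and others only if they passed the variance test. As exceptions, Gphn and Slitrk6 were added after their values were seen. The genes and lists were chosen with earlier results of these data known. The alternatives were quantile normalization, median centring, removal of the level-dependent difference of the arrays, log2(value + 16), each mouse left out in turn, other limits (90th and 99th percentile) and other forms of the variance model.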

Additional observations from a re-analysis of the deposited data

How the results depend on the processing

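All 8 genes stayed above the background limit under each alternative run, and 0 of 8 passed limma's variance test in each of 8 other settings of it, where adjusted p-values of single genes ran from 0.973 to 0.999. Of the partner genes 0 passed in those settings, and 1 did without adjustment. The level of each gene moved by less than its SD between mice after quantile normalization and with log2(value + 16). The order of the mice depended on scaling. Mouse 1 was lowest for 1 gene after quantile normalization and with the level-dependent difference removed, and for 4 with median centring. Mouse 2 was highest for 1 gene, 1 gene and 2 genes under these, and mouse 3 was lowest for 2 with median centring. The median deviation in mouse 1 was 0.12 after quantile normalization and 0.12 with the level-dependent difference removed, against -0.01 as deposited. Over all single-gene probe sets above the limit, quantile normalization moved the median deviation in mouse 1 from -0.07 to -0.0018 and the share lowest in mouse 1 from 53.8% to 41.3%. Leaving out a mouse gave median SDs of 0.08 to 0.13 for the genes and of 0.12 to 0.15 for the pairs. The ratio of Lrrtm1 to Lrrtm4 moved 1.58-fold under quantile normalization too, 1.47-fold without mouse 2 and 1.08-fold without mouse 1, and the cause was not tested. The number of probe sets past the variance test was 9, with 2 after quantile normalization, 5 with median centring or without a trend, 18 when all probe sets were tested and 27 without mouse 1. No paired analysis was possible because the series has a single group. Signal over background was not limiting for the 8 genes, the dimmest being 3.22 above the limit, and the number of arrays limits what can be said of differences between animals.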
